A study of Homo sapiens with 4 samples.

Results

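The subunits of the respiratory chain and of ATP synthase were followed in 2 established human bladder cancer cell lines, 5637 and T24, after 6 h with protodioscin, a steroidal saponin of plants, or without it. Ensembl gene IDs were matched to symbols, and protein-coding genes with the names of subunits of complexes I to V were kept (NDUFA, NDUFB, NDUFC, NDUFS, NDUFV, SDHA to SDHD, UQCR, CYC1, COX4 to COX8, ATP5 and the MT-ND, MT-CO, MT-CYB and MT-ATP genes), while 2 read-through genes, ATP5MF-PTCD1 and NDUFC2-KCTD14, were left out. That gave 101 of the 60617 gene IDs, of which 13 are encoded by the mitochondrial genome and 88 by the nucleus. The libraries were 5637 with 70 µM protodioscin, untreated 5637, T24 with 60 µM protodioscin and untreated T24, 1 library each. The doses are those of the sample titles, the protocol gives them in millimolar, and no vehicle is named. The cells were grown in RPMI with heat-inactivated fetal bovine serum, and the study asked how the mRNA of bladder cancer lines responds to the compound.

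Complexes I to IV pass electrons from NADH and succinate to oxygen, and the proton gradient built on the way drives ATP synthase, complex V. The mitochondrial genome codes for core membrane subunits of complexes I, III, IV and V, transcribed as long precursors from each strand and cut at the tRNAs, whereas all subunits of complex II and most small subunits of the others come from nuclear genes whose proteins are imported. Both genomes therefore have to supply parts of the same complexes, and the nuclear genes include paralogs used only in muscle, testis or low oxygen.

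Levels are in FPKM, a count of fragments divided by transcript length and by library size. This allows for length and depth, but comparisons between libraries still depend on the makeup of each library. Summed over all genes, FPKM came to 348577 and 338385 in treated and untreated 5637. The sums were 322821 and 325580 in treated and untreated T24. Results under other scalings are given below. In each library, 11941 to 12405 genes were at 1 FPKM or above. The step between the smallest values in a library gives the worth of a single read pair, and it put the depth of the treated library at 0.829 times that of the untreated library in 5637 and at 1.28 times in T24. MT-ND6, the lowest of the mitochondrial subunits in FPKM in all 4 libraries, rested on an estimated 3553 and 3221 read pairs in treated and untreated 5637, and on 1637 and 1545 in treated and untreated T24. Of 8 urothelial and epithelial markers, 8 were at 1 FPKM or more in 5637 and 5 in T24, where KRT5 was listed at 0 with treatment and without it and TP63 and CDH1 were at 0.0232 FPKM or less. The summed levels of fibroblast, immune and endothelial markers stayed between 0.123 and 11.4 FPKM per list and library.

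The mitochondrial mRNAs are short of the parts that make other mRNAs easy to count apart, and their sequences show it. In the GENCODE 29 transcripts, 6 of the 13 end within a codon, and polyadenylation is known to complete the stop codon, and the libraries here were made by poly(A) selection. The last 18 bases of 6 of them are given 5′ to 3′ because poly(A) selection acts on this end, with the bases of the last, complete or incomplete, codon in capitals. MT-ND6 (chrM:14149-14673) is the only one on the light strand and is known to carry little or no poly(A).
MT-ND1: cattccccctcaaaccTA
MT-ND4: ttaccgggttttcctctT
MT-CO3: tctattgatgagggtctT
MT-CYB: aaatactcaaatgggccT
MT-CO1: gtatacataaaatctAGA
MT-ND6: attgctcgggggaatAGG

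MT-ATP8 and MT-ATP6, the mitochondrially encoded membrane subunits of ATP synthase, lie on a shared mRNA and overlap by 46 bases. MT-ND4L and MT-ND4 of complex I do so by 7 bases. The overlaps are printed because reads in them belong to both members of the pair. They are given on the plus strand of GRCh38 with the shared bases in capitals and 6 bases on each side. The first stretch is chrM:8521-8578 and the second is chrM:10754-10772.
MT-ATP8 and MT-ATP6: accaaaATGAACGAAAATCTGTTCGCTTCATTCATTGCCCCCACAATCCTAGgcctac
MT-ND4L and MT-ND4: actccaATGCTAAaactaa

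A second source of shared reads is a nuclear insertion of mitochondrial DNA on chromosome 1, where GENCODE 29 lists 7 near-identical copies of MT-ND1, MT-ND2, MT-CO1, MT-CO2, MT-ATP8, MT-ATP6 and MT-CO3, between positions 629062 and 634922. Over the aligned bases the copies were 97.6% to 98.9% identical to the genes, with 10 mismatches in 681 bases for MTATP6P1, the copy of MT-ATP6. The stretch of 60 bases with the most mismatches is shown for this pair, with the differing bases in capitals, to show how few positions tell the gene from its copy. The mitochondrial stretch is chrM:8642-8701 and that of the copy is chr1:633811-633870, both on the plus strand of GRCh38.
MT-ATP6: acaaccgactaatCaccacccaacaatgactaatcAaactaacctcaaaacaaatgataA
MTATP6P1: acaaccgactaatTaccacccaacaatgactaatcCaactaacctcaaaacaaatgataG

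MTATP6P1 was listed at 1635 and 1302 FPKM in treated and untreated 5637 cells, and at 338 and 423 FPKM in treated and untreated T24 cells. These values were 32.1% and 31.9% of the sum of gene and copy in 5637, and 28.0% and 29.4% in T24. The copy thus took a like share of the pair in every library, as did MTND2P28, with 25.4% and 25.7% in 5637 and 26.6% and 25.1% in T24. MTCO1P12 held 16.0% and 16.2% in 5637 and 18.02% and 17.5% in T24, and the other 4 copies held 0.298% to 3.38%. How the reads of genes and copies were divided was not tested. The levels of these 7 mitochondrial subunits are therefore uncertain, by an amount that those shares need not bound.

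Complex I receives electrons from NADH, and its 7 mitochondrial subunits form the core of the membrane arm that pumps protons. MT-ND1 (ENSG00000198888, chromosome M, 3307 to 4262) was at 1773 and 1404 FPKM in treated and untreated 5637 cells, and at 348 and 443 FPKM in treated and untreated T24 cells. MT-ND2 was at 1634 and 1355 FPKM in 5637 cells, and at 388 and 434 FPKM in T24 cells. MT-ND3 was at 413 and 372 FPKM in 5637 cells, and at 181 and 170 FPKM in T24 cells. Of these 3, MT-ND3 was the only one above its untreated level in treated T24. MT-ND4 was at 3599 and 2911 FPKM in 5637 cells, and at 1114 and 1387 FPKM in T24 cells. MT-ND4L, on the same mRNA, was at 4182 and 3314 FPKM in 5637 cells, and at 1262 and 1606 FPKM in T24 cells. MT-ND5 was at 1375 and 1115 FPKM in 5637 cells, and at 512 and 573 FPKM in T24 cells. In each of these genes both 5637 libraries lay above both T24 libraries, as in 40.9% of all genes tested. The light-strand gene MT-ND6 was at 279 and 210 FPKM in 5637 cells, and at 120 and 144 FPKM in T24 cells. The libraries were made without strand, so reads from RNA of the other strand may be counted as MT-ND6, which was not tested.

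MT-CYB, the cytochrome b core of complex III, was at 1542 and 1221 FPKM in treated and untreated 5637 cells, and at 583 and 706 FPKM in treated and untreated T24 cells. Complex IV has 3 mitochondrial subunits, which form its catalytic core. MT-CO1, which holds the oxygen-reducing site, was at 4988 and 3999 FPKM in 5637 cells, and at 2085 and 2713 FPKM in T24 cells. MT-CO2, which takes electrons from cytochrome c, was at 4096 and 3505 FPKM in 5637 cells, and at 1238 and 1445 FPKM in T24 cells. MT-CO3 was at 3834 and 3040 FPKM in 5637 cells, and at 869 and 1096 FPKM in T24 cells. All 3 were higher in the treated than in the untreated 5637 library and lower in the treated than in the untreated T24 library. In complex V, MT-ATP6, the proton channel subunit, was at 3455 and 2774 FPKM in 5637 cells, and at 869 and 1016 FPKM in T24 cells, and MT-ATP8 was at 5853 and 4478 FPKM in 5637 cells, and at 1382 and 1634 FPKM in T24 cells. MT-ATP8 had the highest FPKM of the 13 in both 5637 libraries and MT-CO1 in both T24 libraries. The MT-ATP8 transcript has only 207 bases and shares an mRNA and 46 bases with MT-ATP6, so its rank is uncertain.

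**Figure D1:**
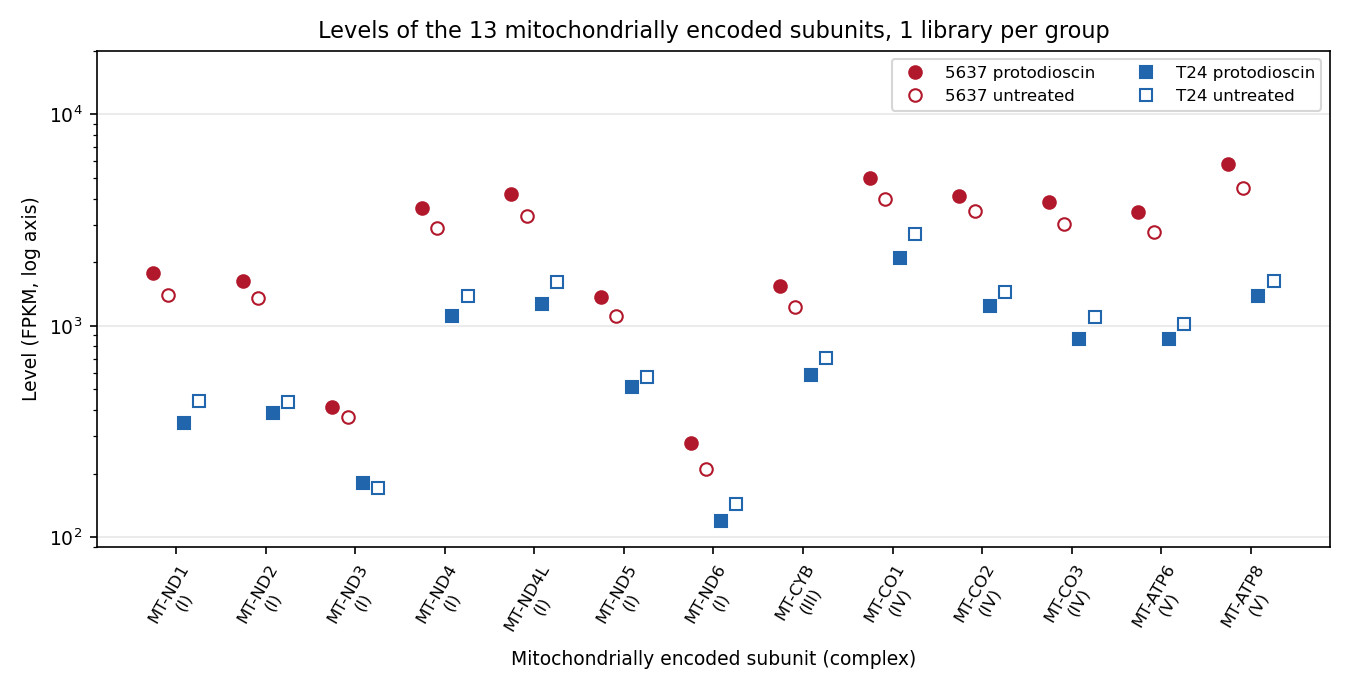
Level of each mitochondrially encoded subunit in FPKM, on a log axis, with 1 point per library, ordered by complex. The 5637 libraries lie above the T24 libraries for all 13 genes, and within a line the treated point lies above the untreated one in 5637 for 13 genes and below it in T24 for 12, MT-ND3 being the exception.

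Summed over the 13 genes, the mitochondrial subunits came to 37021 and 29698 FPKM in treated and untreated 5637 cells, and to 10952 and 13368 FPKM in treated and untreated T24 cells. The 88 nuclear subunits came to 3556 and 3429 FPKM in 5637 cells and to 3246 and 3196 FPKM in T24 cells. The nuclear sums of the 4 libraries were thus close together, while the mitochondrial sums were 2.22 to 3.38 times as high in 5637 as in T24 within a treatment. The ratio of the mitochondrial to the nuclear sum was 10.4 and 8.66 in 5637 and 3.37 and 4.18 in T24. Without genes that share exons it was 6.71 and 5.73 in 5637 and 2.49 and 3.06 in T24, and from medians in place of sums 97.5 and 82.5 in 5637 and 25.2 and 30.8 in T24. By complex, the ratio of sums was highest in complex IV, at 16.5 and 14.2 in 5637 and 6.21 and 8.04 in T24. It was 11.0 and 9.33 in 5637 and 3.56 and 4.39 in T24 for complex I, and 9.24 and 7.26 in 5637 and 2.41 and 2.85 in T24 for complex V. Complex III, with MT-CYB as its only mitochondrial subunit, had 3.63 and 2.94 in 5637 and 1.45 and 1.82 in T24. In medians, with nuclear genes at 1 FPKM or more, treated 5637 had 4654 FPKM mitochondrial and 41.9 nuclear in complex V. In complex IV it had 4096 and 43.7. Treated T24 had 1125 and 45.9 in complex V, and 1238 and 36.2 in complex IV. By medians complex V thus stood above complex IV in treated 5637 and below it in treated T24. The order of the complexes by sums was the same in all 4 libraries, but sums depend on how many genes each genome gives. MT-ATP8 and MT-ATP6, and MT-ND4L and MT-ND4, count a shared mRNA once for each gene in these sums, and without MT-ND6, MT-ATP8 and MT-ND4L the ratio over all complexes was 7.51 and 6.33 in 5637 and 2.52 and 3.12 in T24.

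**Figure D2:**
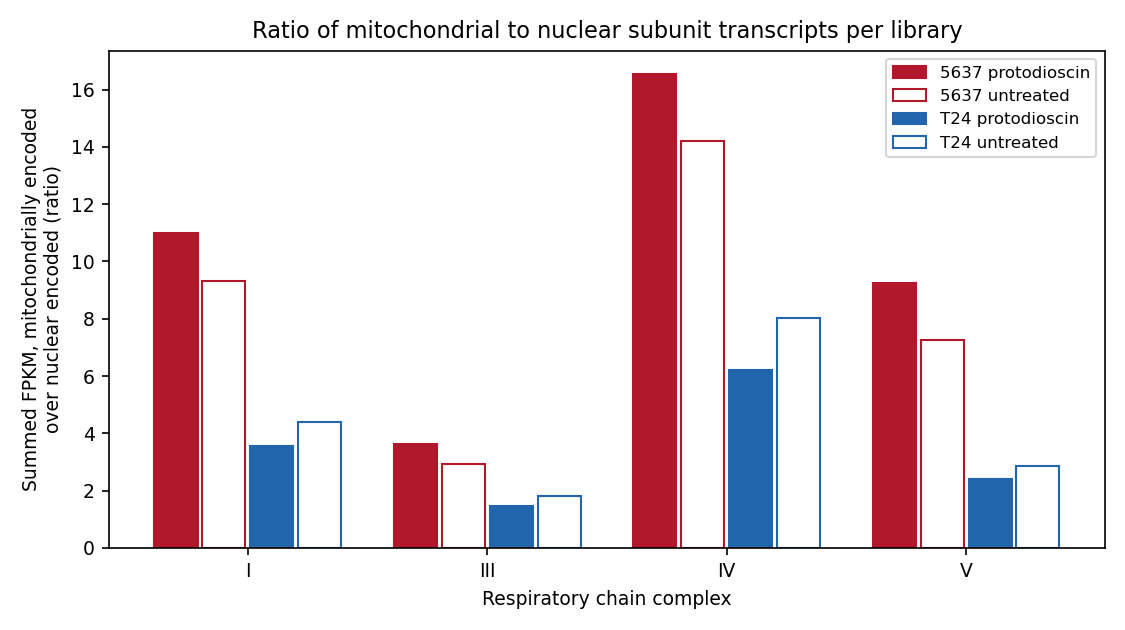
Ratio of the summed FPKM of mitochondrially encoded subunits to that of nuclear encoded subunits, by complex, with 1 bar per library and the axis starting at 0. Complex II has no mitochondrially encoded subunit. The treated bar is above the untreated bar in 5637 and below it in T24 in each complex.

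The mitochondrial subunits differed with treatment in opposite directions in the 2 lines. In 5637, all 13 were higher in the treated library, with a median difference of 0.32 on the log2(FPKM + 1) scale and a range of 0.15 to 0.41, while 61.5% of the 12635 genes compared were above 0. In T24, 12 of 13 were lower in the treated library, with a median of -0.27 and a range of -0.38 to 0.089, while 44% of the 12193 genes compared were below 0. Of the 13, 11 were higher by 0.25 or more in 5637, against 9.31% of all genes, and 7 were lower by 0.25 or more in T24, against 8.58% of all genes. As folds of FPKM, the treated over the untreated level ranged from 1.11 to 1.33 with a median of 1.25 in 5637, and from 0.768 to 1.06 with a median of 0.829 in T24. The median over all genes compared was 0.043 in 5637 and 0.025 in T24. With quantile normalization the 5637 median was 0.13 and 10 of 13 were above 0, while 12 of 13 stayed below 0 in T24. Each group was a single library, so these differences cannot be set against a spread between replicates and carry no test, and the doses differed between the lines.

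Of the mitochondrial ribosomal RNAs, MT-RNR1 differed in the same directions as the subunits and MT-RNR2 did so in 5637 but not in T24. MT-RNR1 was at 347 and 263 FPKM in treated and untreated 5637 cells, and at 103 and 124 FPKM in treated and untreated T24 cells, and MT-RNR2 was at 2623 and 2066 FPKM in 5637 cells, and at 632 and 626 FPKM in T24 cells. RNAs that are not polyadenylated or stay in the nucleus, such as MALAT1, NEAT1 and RN7SL2, were followed as a list. In 5637, 4 of the 5 compared were above 0, as were 61.5% of all genes, with a list median of 0.44. In T24, 6 of the 6 compared were below 0, as were 44% of all genes, with a list median of -0.42. Of the 8 genes in that list, 1 was at 0 in each 5637 library and none in either T24 library. Its summed level was 56.7 and 42.8 FPKM in treated and untreated 5637 cells, and 44.2 and 61.4 FPKM in treated and untreated T24 cells. Depth went the other way, with the treated library the shallower one in 5637 and the deeper one in T24. The part of these in the mitochondrial result was not tested. Within a line, a different number of mitochondria, a different amount of RNA in each, and a different mix of cells cannot be told apart in such bulk samples.

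The nuclear subunits, like most genes compared, differed little with treatment. In 5637, 57 of the 80 compared were above 0 and 23 below it, which 38.5% of all genes were, with a median of 0.041, and 5 were higher and 1 lower by 0.25 or more, against 9.31% and 6.4% of all genes. In T24, 43 of 79 were above 0, as were 56% of all genes, with a median of 0.023, and 4 were higher and 5 lower by 0.25 or more, against 8% and 8.58% of all genes. Among 79 nuclear members compared in both lines, 65 differed by less than 0.25 in both, as did 8594 of all 11417 genes compared in both. With TPM and with median-ratio scaling, 39 and 31 of the 80 nuclear members were above 0 in 5637. The mitochondrial minus the nuclear median was 0.28 in 5637 and -0.29 in T24. No subunit gene of either genome reached a 2-fold difference in either line, which 0.174% of genes did upward and 0.214% downward in 5637, and 0.205% and 0.279% in T24.

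**Figure D3:**
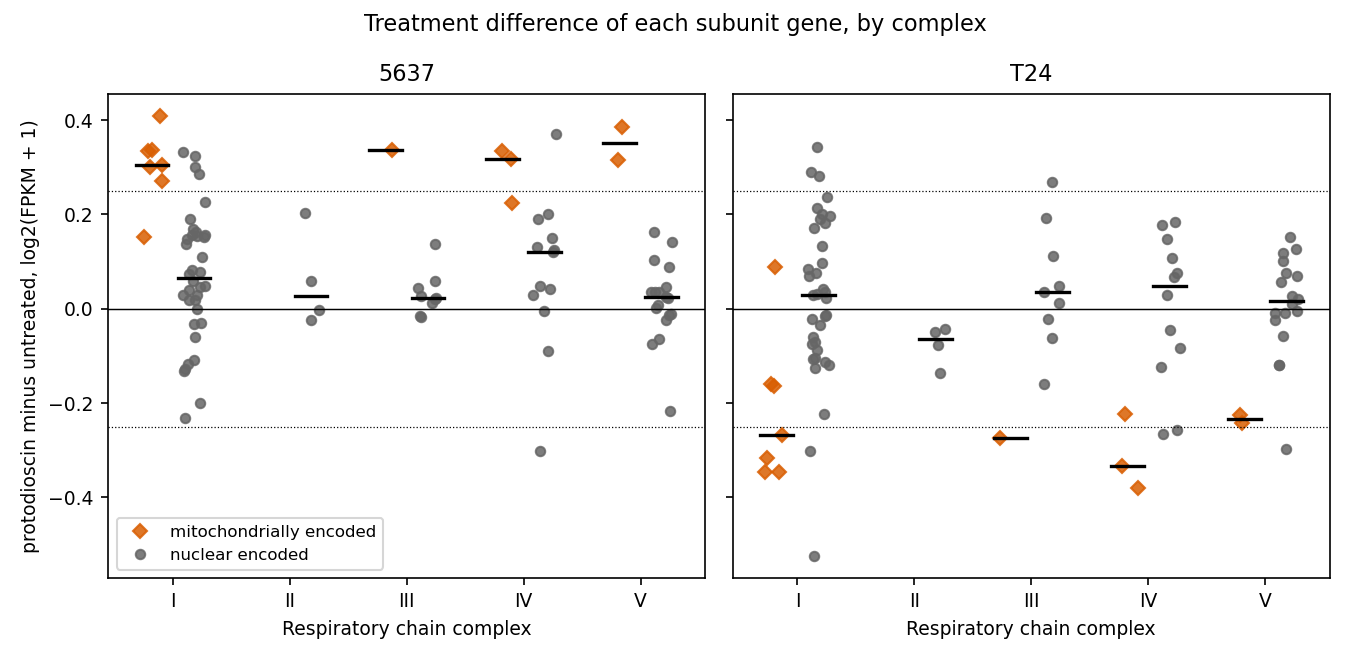
Treated minus untreated level of each subunit gene on the log2(FPKM + 1) scale, by complex, for genes that reach 1 FPKM in either library of the line. Diamonds are mitochondrially encoded and circles nuclear encoded genes, black bars are medians, and dotted lines mark 0.25 in each direction. The diamonds lie above 0 in 5637 and, except MT-ND3, below 0 in T24, while the circles spread around 0 in both.

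Among nuclear subunits of complex I, NDUFS5, an accessory subunit facing the intermembrane space, was the most abundant on average, at 94.3 and 92.4 FPKM in treated and untreated 5637 cells, and at 117 and 104 FPKM in treated and untreated T24 cells. The zinc-binding accessory subunit NDUFS6 had the largest negative difference of any subunit in T24, at 30.5 FPKM treated and 44.3 FPKM untreated (-0.52), and was at 49.8 and 52.0 FPKM in 5637 cells. NDUFA11, of the membrane arm, was at 48.2 and 38.1 FPKM in 5637 cells (0.33), and at 37.1 and 31.3 FPKM in T24 cells (0.24). It was thus higher in the treated library of both lines, as were 4476 of all 11417 genes compared in both. Its neighbour in shared exons, ENSG00000267740, was at 3.04 and 4.84 FPKM in 5637 cells, and at 2.46 and 4.38 FPKM in T24 cells. NDUFC2, also of the membrane arm, was at 26.1 and 30.9 FPKM in 5637 cells (-0.23), and at 37.9 and 29.6 FPKM in T24 cells (0.34). The read-through gene NDUFC2-KCTD14, which holds the same exons, was at 14.6 and 3.52 FPKM in 5637 cells, and at 5.60 and 10.7 FPKM in T24 cells. The sum of both was 40.8 and 34.4 FPKM in 5637 cells (0.24) and 43.5 and 40.3 FPKM in T24 cells (0.11), so the direction of NDUFC2 in 5637 turned when the shared exons were counted together.

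Complex II links the citric acid cycle to the chain and has only nuclear subunits. SDHB, the iron-sulfur subunit, was at 52.1 and 52.2 FPKM in treated and untreated 5637 cells, and at 49.3 and 50.8 FPKM in treated and untreated T24 cells. The flavoprotein SDHA was at 56.9 and 49.3 FPKM in 5637 cells (0.20), and at 46.6 and 49.2 FPKM in T24 cells (-0.077). The membrane anchor SDHC was the lowest, at 5.39 and 5.50 FPKM in 5637 cells, and at 4.402 and 4.94 FPKM in T24 cells (-0.14). All 4 subunits were below 0 in T24, as were 44% of all genes, and none by 0.25.

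In complex III the hinge protein UQCRH was the most abundant, at 147 and 142 FPKM in treated and untreated 5637 cells, and at 109 and 101 FPKM in treated and untreated T24 cells. UQCRB, which lines the ubiquinone site, was at 18.5 and 16.8 FPKM in 5637 cells (0.14), and at 20.3 and 16.7 FPKM in T24 cells (0.27). The Rieske iron-sulfur protein UQCRFS1 was at 13.5 and 13.7 FPKM in 5637 cells, and at 13.2 and 13.1 FPKM in T24 cells, and the small subunit UQCR11 at 14.3 and 14.1 FPKM in 5637 cells, and at 11.7 and 13.2 FPKM in T24 cells (-0.16). Of the 9 compared, UQCRB alone reached 0.25 in a line.

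In complex IV, COX7B, a small membrane subunit, had the largest positive difference of any nuclear subunit in 5637, at 21.3 FPKM treated and 16.3 FPKM untreated (0.37), and was at 17.8 and 18.9 FPKM in T24 cells. COX6C was at 46.6 and 40.7 FPKM in 5637 cells (0.19), and at 34.7 and 41.9 FPKM in T24 cells (-0.27). COX5B, a zinc-binding subunit on the matrix side, was at 54.1 and 47.0 FPKM in 5637 cells (0.20), and at 37.6 and 33.0 FPKM in T24 cells (0.18). COX5B was thus higher with treatment in both lines by nearly the same amount. In complex V, ATP5MC3, one of the genes for the c-ring, was at 24.4 and 23.8 FPKM in 5637 cells, and at 15.3 and 19.0 FPKM in T24 cells (-0.30). The membrane subunit ATP5ME was at 21.1 and 24.7 FPKM in 5637 cells (-0.22), and at 24.5 and 24.7 FPKM in T24 cells. The small proteolipid ATP5MJ was at 37.5 and 33.4 FPKM in 5637 cells (0.16), and at 25.6 and 24.6 FPKM in T24 cells. The catalytic beta subunit ATP5F1B, the most abundant of complex V, was at 171 and 173 FPKM in 5637 cells, and at 140 and 152 FPKM in T24 cells.

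Over both lines together, limma called no subunit for treatment at an adjusted p below 0.05, and none of the 12893 genes tested (0%). At an unadjusted p below 0.05, 3 nuclear subunits were higher and 2 lower and no mitochondrial subunit passed, against 5.58% and 3.94% of all genes, or 9.52% in either direction. The treatment coefficients of the mitochondrial subunits lay between -0.031 and 0.12, since opposite differences in the lines cancel in this fit. The fit had 1 residual degree of freedom per gene, against 4.99 of its prior, which pools the spread of all 12893 genes by level. Its p-values and standard errors thus rest mostly on that pooled spread and less on the spread of the gene itself. The labels do not say that the cultures were independent, so neither measures a spread between replicate cultures.

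Between the lines, the mitochondrial subunits were all higher in 5637, by more than they differed with treatment in either line. limma called 13 of 13 higher in 5637 than in T24, against 33.9% of all genes, with adjusted p between 2.25e-05 and 0.00336. The median coefficient was 1.39 on the log2 scale, against -0.014 over all genes. The coefficients were 2.003 ± 0.154 for MT-ND1, 1.86 ± 0.11 for MT-ND2 and 1.81 ± 0.16 for MT-CO3. They were 1.77 ± 0.15 for MT-ATP8, 1.72 ± 0.13 for MT-ATP6 and 1.501 ± 0.119 for MT-CO2. Each ± is the SE of limma with its pooled prior (2 libraries per line). For MT-ND1 the difference between the lines was 2.34 in treated and 1.66 in untreated cells. MT-ND6 and MT-CO1 had the smallest coefficients, 0.88 ± 0.15 and 0.91 ± 0.16. Both missed the threshold when genes of low level were kept in the fit (limma adjusted p = 0.0672 and 0.101). In all 13 both 5637 libraries were above both T24 libraries, as in 40.9% of all genes tested. Within untreated cells the summed level was 2.22 times as high in 5637 as in T24, and within treated cells 3.38 times.

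Of the 80 nuclear subunits tested, 32 were called higher in 5637, 17 were called lower and 31 were not called. That is 61.25% called in either direction, against 68.9% of all genes. Without genes that share exons, 55 nuclear subunits were left, with 22 called higher and 9 lower. The median coefficient was 0.13. The nuclear sum was 1.07 times as high in untreated 5637 as in untreated T24, and 1.10 times as high in treated cells. By complex, 17 of 36 tested were higher and 6 lower in complex I, none of 4 higher and 1 lower in complex II, 2 of 9 higher and 1 lower in complex III, 6 of 13 higher and 2 lower in complex IV, and 7 of 18 higher and 7 lower in complex V. Over all genes tested, 33.9% were called higher and 35.1% lower.

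**Figure D4:**
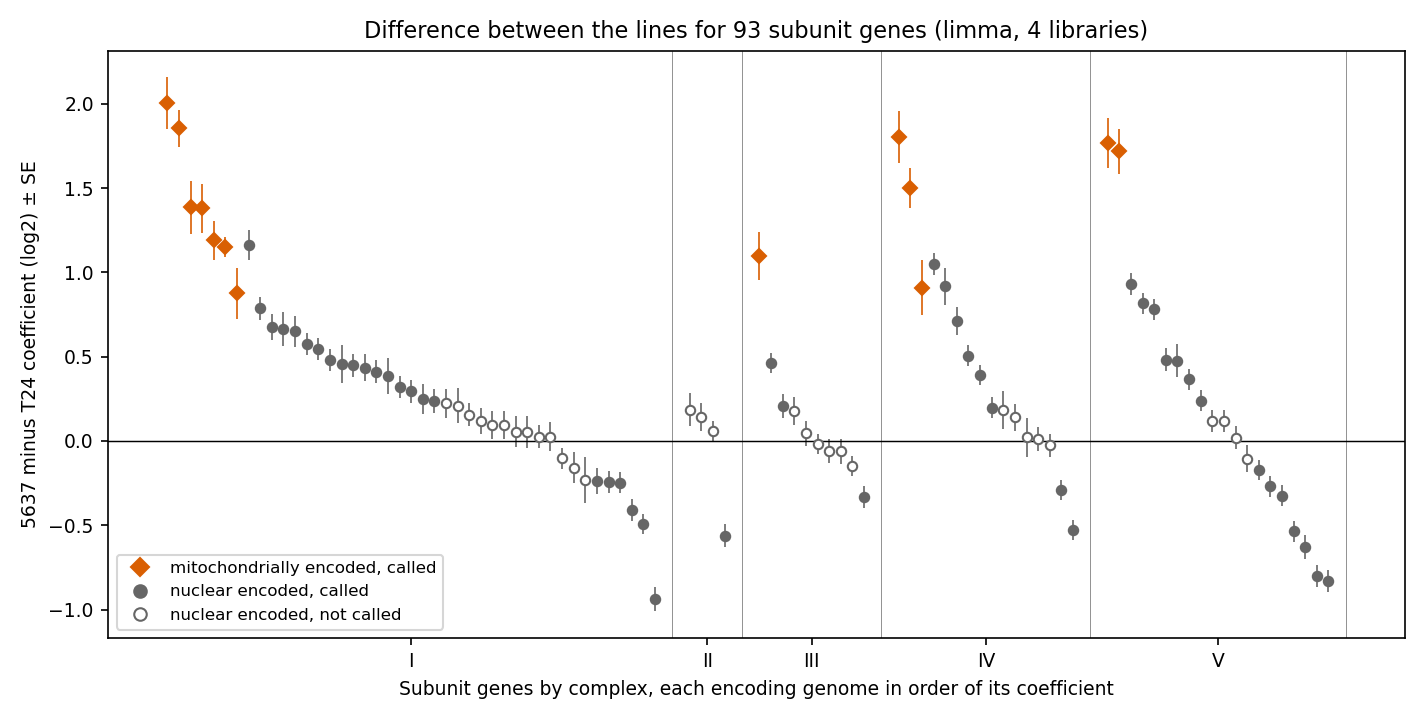
5637 minus T24 coefficient of limma on the log2(FPKM + 1) scale, with its standard error, for the 93 subunit genes tested, by complex and in order within each encoding genome. Filled symbols are called at an adjusted p below 0.05. Diamonds, the mitochondrial subunits, lie between 0.88 and 2.003, and circles, the nuclear subunits, between -0.94 and 1.16.

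The nuclear subunits furthest below T24 came from complexes I, II and V. NDUFB10, an accessory subunit of the membrane arm of complex I, was at 33.1 and 38.2 FPKM in treated and untreated 5637 cells, and at 68.7 and 69.4 FPKM in treated and untreated T24 cells, a coefficient of -0.94 ± 0.07. ATP5MC2, a c-ring gene, was at 32.7 and 32.2 FPKM in 5637 cells, and at 61.0 and 56.1 FPKM in T24 cells (-0.83 ± 0.06). ATP5IF1, the inhibitor that stops ATP synthase from running backwards, was at 42.7 and 42.0 FPKM in 5637 cells, and at 78.6 and 70.7 FPKM in T24 cells (-0.80 ± 0.06). The central-stalk subunit ATP5F1E was at 18.1 and 18.2 FPKM in 5637 cells, and at 29.7 and 27.6 FPKM in T24 cells (-0.63 ± 0.07). For these 4 genes, and for SDHD and ATP5MK, both 5637 libraries were below both T24 libraries, as in 42.4% of all genes tested. The genes were chosen by their coefficients, so this adds no support. The membrane anchor SDHD was at 22.8 and 21.9 FPKM in 5637 cells, and at 32.9 and 34.1 FPKM in T24 cells (-0.56 ± 0.07), and ATP5MK, a small membrane subunit of ATP synthase, at 37.0 and 38.7 FPKM in 5637 cells, and at 55.8 and 54.8 FPKM in T24 cells (-0.54 ± 0.06). limma's adjusted p for these 6 genes lay between 8.89e-05 and 0.000612.

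Among the nuclear subunits called higher, the 6 with the largest coefficients among those at 1 FPKM or more in all 4 libraries are given here, chosen after their values were seen. NDUFA5, an accessory subunit of the matrix arm of complex I, was at 16.2 and 15.3 FPKM in treated and untreated 5637 cells, and at 7.27 and 5.77 FPKM in treated and untreated T24 cells (1.16 ± 0.09). COX6A1, the widely used form of a regulatory subunit of complex IV, was at 222 and 216 FPKM in 5637 cells, and at 112 and 99.1 FPKM in T24 cells (1.05 ± 0.06), and was the most abundant nuclear subunit of complex IV in 5637, whereas COX4I1 was in T24, at 151 and 143 FPKM. ATP5PF, a coupling subunit of the peripheral stalk of ATP synthase, was at 74.1 and 68.9 FPKM in 5637 cells, and at 42.0 and 38.4 FPKM in T24 cells (0.82 ± 0.06). ATP5MF, a small membrane subunit of ATP synthase that shares exons with PTCD1, was at 133 and 140 FPKM in 5637 cells, and at 72.9 and 69.2 FPKM in T24 cells (0.93 ± 0.07). NDUFA12, of the matrix arm of complex I, was at 42.2 and 39.9 FPKM in 5637 cells, and at 25.1 and 21.7 FPKM in T24 cells (0.79 ± 0.07), and ATP5PO, which joins the stalk to the catalytic head, at 62.4 and 60.8 FPKM in 5637 cells, and at 35.1 and 35.7 FPKM in T24 cells (0.78 ± 0.06). limma's adjusted p for these 6 genes lay between 3.98e-05 and 0.000152.

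Promoters are shown because nuclear respiratory genes are known to share sites for NRF1, for ETS factors such as GABP and for YY1. Of the 88 nuclear members, 69 had at least 1 entry in the RefSeq promoter table of build GRCh38.p14 (82 entries, each of 250 bases before to 50 after a start). The motifs searched on both strands were GCGCNTGCG for NRF1, CCGGAAG for ETS factors and AAGATGGC for YY1, and no motif contains another. At least 1 of the 3 was found in 57.3% of the members' promoters and in 18.3% of all 35116 promoters. NRF1 letters were in 31.7% of members' and 7.47% of all promoters, ETS letters in 26.8% and 10.3%, and YY1 letters in 15.9% and 2.89%. Among members' promoter entries, 22 of 29 from 26 genes called higher in 5637 held a motif. So did 11 of 23 entries from 16 genes called lower and 13 of 27 from 24 genes not called. Genes with several entries count more than once here, so these are not shares of genes. These are descriptions of letters and not of bound sites. Of the promoters printed, 3 belong to genes called higher and NDUFB10 to a gene called lower, each 5′ to 3′ on the gene's strand with motif letters in capitals. They are chr12:120437863-120438162 (plus strand) for COX6A1, chr21:25734855-25735154 (minus strand) for ATP5PF, chr21:33915755-33916054 (minus strand) for ATP5PO and chr16:1959288-1959587 (plus strand) for NDUFB10.
COX6A1: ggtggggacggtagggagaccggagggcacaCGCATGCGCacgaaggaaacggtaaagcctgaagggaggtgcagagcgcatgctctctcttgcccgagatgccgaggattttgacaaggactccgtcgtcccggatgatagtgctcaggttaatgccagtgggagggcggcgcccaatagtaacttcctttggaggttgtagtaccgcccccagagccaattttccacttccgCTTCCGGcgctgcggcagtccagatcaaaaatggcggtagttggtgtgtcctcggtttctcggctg
ATP5PF: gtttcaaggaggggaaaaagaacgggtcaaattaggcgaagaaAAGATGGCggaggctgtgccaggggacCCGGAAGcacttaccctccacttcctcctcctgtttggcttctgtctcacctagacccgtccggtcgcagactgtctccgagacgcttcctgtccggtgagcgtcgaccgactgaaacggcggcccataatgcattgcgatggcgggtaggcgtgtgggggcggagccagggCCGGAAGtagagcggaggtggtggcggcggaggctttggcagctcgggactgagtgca
ATP5PO: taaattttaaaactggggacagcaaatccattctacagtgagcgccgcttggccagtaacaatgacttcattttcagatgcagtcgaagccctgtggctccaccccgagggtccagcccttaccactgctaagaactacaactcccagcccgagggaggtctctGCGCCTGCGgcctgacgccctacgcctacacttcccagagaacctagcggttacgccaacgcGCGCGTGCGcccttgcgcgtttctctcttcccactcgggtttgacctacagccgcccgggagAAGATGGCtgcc
NDUFB10: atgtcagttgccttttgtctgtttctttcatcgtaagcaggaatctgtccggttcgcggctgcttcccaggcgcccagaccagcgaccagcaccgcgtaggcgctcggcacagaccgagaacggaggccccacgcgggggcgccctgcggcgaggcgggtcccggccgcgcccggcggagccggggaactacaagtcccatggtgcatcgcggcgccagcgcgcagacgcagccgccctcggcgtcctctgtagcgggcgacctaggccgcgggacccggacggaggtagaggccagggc
COX6A1 held 1 NRF1, 1 ETS and 0 YY1 matches, the printed ATP5PF entry held 0, 2 and 1, ATP5PO held 2, 0 and 1, and NDUFB10 held 0, 0 and 0. ATP5PF has a second, overlapping entry at chr21:25735005-25735304, not printed, which held 1 NRF1, 1 ETS and 1 YY1 match. The genes printed do not stand for their groups. Among genes called lower, SDHD held 2 NRF1 matches and 1 ETS match, and ATP5MK held 3 ETS matches. NDUFB3 and NDUFB11, called higher, held no match. The genes of the factors were not called between the lines. The coefficient was 0.21 ± 0.10 for NRF1 (adjusted p = 0.0935), 0.22 ± 0.09 for GABPA (adjusted p = 0.0556) and -0.034 ± 0.071 for YY1 (adjusted p = 0.689), by limma with Benjamini-Hochberg adjustment. GABPA shares exons with ATP5PF on the opposite strand, and the libraries were made without strand, so reads of these genes may be mixed.

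Several nuclear subunits have paralogs, and for most pairs 1 member was at or near 0. COX4I2 (known in lung and low oxygen), COX6A2 and COX7A1 (heart and skeletal muscle), COX7B2 and COX8C (testis) and ATP5MGL were listed at 0 in all 4 libraries. Their widely expressed counterparts COX4I1, COX6A1, COX7A2, COX7B, COX8A and ATP5MG lay between 16.3 and 222 FPKM. COX6B2, a testis form, was at 1.23 and 1.75 FPKM in treated and untreated 5637 cells, and at 0.218 and 0.408 FPKM in treated and untreated T24 cells, while COX6B1 was at 77.0 and 70.8 FPKM in 5637 cells, and at 59.1 and 53.2 FPKM in T24 cells. COX6B2 passed the filter only through 5637, so its being counted among the 32 nuclear subunits called higher there follows from the filter. Its treatment difference in 5637 was -0.30. NDUFA4L2, known to be induced in low oxygen, was at 0.0660 and 0.0814 FPKM in 5637 cells, and at 0.513 and 0.623 FPKM in T24 cells, with NDUFA4 at 17.6 and 16.1 FPKM in 5637 cells, and at 9.74 and 10.1 FPKM in T24 cells. UQCRHL was at 0.383 FPKM or less in each library.

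The c-ring of ATP synthase has 3 genes that code for the same mature protein and differ in the peptide that directs its import. Their sum was 90.3 and 89.1 FPKM in treated and untreated 5637 cells, and 116 and 116 FPKM in treated and untreated T24 cells. ATP5MC2 gave 36.3% and 36.1% of it in 5637 and 52.8% and 48.3% in T24. ATP5MC3 gave 27.1% and 26.7% in 5637 and 13.2% and 16.4% in T24, and ATP5MC1 36.7% and 37.1% in 5637 and 34.0% and 35.3% in T24. The share of ATP5MC1 was thus alike in both lines, with ATP5MC3 taking a larger and ATP5MC2 a smaller share in 5637. limma called ATP5MC3 higher in 5637 (0.48 ± 0.10, adjusted p = 0.00542) and ATP5MC2 and ATP5MC1 lower (ATP5MC1 -0.27 ± 0.06, adjusted p = 0.00996).

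Genes that build and control the chain were followed as lists. None of their members was called for treatment. The 22 assembly factors of complex IV had 12 members above 0 in 5637 and 11 in T24, against 61.5% and 56% of all genes. Their medians were 0.028 and -0.0031. COX11, which delivers copper to MT-CO1, was at 22.0 and 30.1 FPKM in treated and untreated 5637 cells (-0.43), and at 14.3 and 17.05 FPKM in treated and untreated T24 cells (-0.24). Of 17 assembly factors of complex I, 12 were above 0 in 5637 and 6 in T24, against 61.5% and 56% of all genes. The 15 genes of mitochondrial DNA replication and transcription had medians of 0.038 in 5637 and -0.023 in T24, and limma called 5 of them higher and 6 lower in 5637 than in T24, near the 33.9% and 35.1% of all genes. TFAM, which packages and transcribes mitochondrial DNA, was at 10.7 and 10.2 FPKM in 5637 cells, and at 16.7 and 16.1 FPKM in T24 cells (-0.60 ± 0.08, adjusted p = 0.00068). SSBP1, the single-strand binding protein of the mitochondrial replication fork, was at 114 and 109 FPKM in 5637 cells, and at 54.7 and 59.02 FPKM in T24 cells (0.96 ± 0.07, adjusted p = 7.11e-05), and MGME1, a nuclease of mitochondrial DNA, at 16.3 and 15.7 FPKM in 5637 cells, and at 33.4 and 34.0 FPKM in T24 cells (-1.03 ± 0.07, adjusted p = 5.38e-05). Among 12 regulators of mitochondrial biogenesis, 3 of 10 compared were above 0 in 5637 and 3 of 9 in T24, where 61.5% and 56% of all genes were. MYC had the largest difference of the list in both lines, at 57.0 and 67.2 FPKM in 5637 cells (-0.23), and at 25.5 and 42.8 FPKM in T24 cells (-0.73). PPARGC1A was at 0.118 FPKM or less in each library, and the coactivator PPRC1 was at 14.6 and 15.7 FPKM in 5637 cells (-0.10), and at 17.5 and 24.1 FPKM in T24 cells (-0.44). COX11, TFAM, SSBP1, MGME1, MYC and PPRC1 were chosen after their values were seen.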

How the data were processed

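Polyadenylated RNA was sequenced with paired reads of 150 bases, without strand, per the labels' protocols. The authors deposited FPKM per Ensembl gene ID for 4 libraries. The submitters' processing notes name Trimmomatic, HISAT2, StringTie and GRCh38, while versions, settings and the annotation release were not given in the sources used here. Reads on exons common to several genes are assigned by estimation, which touches 25 nuclear and 5 mitochondrial members on their own strand and 35 members through a gene on the other strand.

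GENCODE 29 gave gene types, positions and exon overlap (bedtools 2.31.1). FPKM was put on the log2(FPKM + 1) scale (Python 3.11.15, pandas 2.3.3), which understates changes of low genes. Treated and untreated libraries of a line were compared, with no test, for genes reaching 1 FPKM in either. A limma 3.58.1 model (R 4.3.3) with terms for line and treatment and a trended prior used the 12893 genes that reached 1 FPKM in 2 or more of the 4 libraries, called at a Benjamini-Hochberg adjusted p below 0.05. Of the 101 members, 93 passed that filter, as did 93 in 5637 and 92 in T24. Data of 12893 genes were also simulated, with the fitted prior spread as noise and 200 genes changed. There the fit recovered 93% of line differences of 0.5 and 100% of those of 1, with 9.6 false calls per draw on average. For treatment differences of 0.5 it recovered 93.1%. Such data meet the assumptions of the fit, so they cannot show how reliable the calls in the real libraries are. The members and the other gene lists were chosen with earlier results of these data known. The text names all mitochondrial members and, by complex, the most abundant nuclear member and those with the largest treatment difference in each direction and line, besides the 6 in each direction with the largest line coefficient. NDUFA4 and NDUFA4L2 were counted with complex IV. A longer NRF1 motif was searched first and found in fewer promoters. Alternatives changed the pseudocount, the filter, the scaling, the prior variance, the model terms and the genes included.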

Additional observations from a re-analysis of the deposited data

Results flagged for a closer look

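The median treatment difference of the 13 mitochondrially encoded subunits was 0.3186 in 5637 and -0.2678 in T24, so the lines differed in direction. For complex III, with MT-CYB as its only mitochondrial gene, it was 0.3365 in 5637 and -0.2752 in T24. For the 3 mitochondrial subunits of complex IV it was 0.3186 in 5637 and -0.3344 in T24, and for the 2 of complex V 0.3514 in 5637 and -0.2335 in T24. In complexes III, IV and V each mitochondrial gene was higher with treatment in 5637 and lower in T24. The difference between the lines was not tested, since each group had 1 library, and the doses were 70 µM in 5637 and 60 µM in T24.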

How the results depend on the processing

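In all, 15 alternative settings were tried. No called result changed direction under any of them. With a pseudocount of 0.1, and also without genes that share exons, 2 genes were called for treatment in each case, against 0. Calls of single members between the lines were lost in 29 cases over all settings, with the direction kept. Quantile normalization gave a median line coefficient of 1.06 for mitochondrial subunits, a median treatment difference of 0.13 in 5637 with 10 of 13 above 0, and a mitochondrial minus nuclear difference of 0.10 there. Without exon-sharing genes, 8 mitochondrial subunits (8 tested, median coefficient 1.17) were called higher and 9 nuclear ones lower in 5637. Without a filter, MT-ND6 and MT-CO1 were no longer called (limma adjusted p = 0.0672 and 0.101). The nuclear median in 5637 was on the other side of 0, at -0.0015 with TPM and -0.022 with median-ratio scaling. The ratio of the mitochondrial to the nuclear level in treated and untreated 5637, then treated and untreated T24, was 6.71, 5.73, 2.49 and 3.06 without exon-sharing genes, 97.5, 82.5, 25.2 and 30.8 from medians in place of sums, 7.51, 6.33, 2.52 and 3.12 without MT-ND6, MT-ATP8 and MT-ND4L, and 11.4, 9.46, 3.68 and 4.56 with the chromosome 1 copies added. The copies, and NDUFC2 with its read-through gene, were chosen after seeing the data. The fit pairs treated with untreated libraries through its cell line term, and without that term 0 genes were called for treatment. No paired analysis was possible by replicate number because each group had 1 library, and no replicate could be left out.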
